A study of Homo sapiens with 14 samples.

Results

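Mineralisation and phosphate handling were followed through 10 genes in cartilage pellets grown from human embryonic stem cells: the phosphatases ALPL and PHOSPHO1, the pyrophosphate suppliers ENPP1 and ANKH, the phosphate importers SLC20A1 and SLC20A2, the acidic matrix proteins DMP1, SPP1 and IBSP, and the calcification inhibitor MGP. The genes were chosen by name for their roles, with earlier results of these data known. All 10 were found once among the 60587 genes of each table. Pellets were made from WA01, an established embryonic stem cell line also called H1, kept in chondrogenic medium, which turns the cells into cartilage-forming chondrocytes. RNA of whole pellets was sequenced at day 21 (4 libraries), day 30 (5 libraries) and day 45 (5 libraries), and the days differ in no other stated way. Every library comes from this 1 line, and nothing in the labels says whether replicates were separate differentiations, so the p-values measure the spread between these libraries, which may be technical.

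Hydroxyapatite, the mineral of bone and calcified cartilage, forms where phosphate and calcium meet and its inhibitor, inorganic pyrophosphate, is scarce. ENPP1 makes pyrophosphate from nucleotides outside the cell and ANKH moves nucleotides and pyrophosphate out of it, while tissue-nonspecific alkaline phosphatase (ALPL) splits pyrophosphate and PHOSPHO1 releases phosphate from phospholipid heads inside matrix vesicles. SLC20A1 and SLC20A2 carry sodium and phosphate into the cell. DMP1, osteopontin (SPP1) and bone sialoprotein (IBSP) are secreted acidic phosphoproteins of a family encoded side by side that bind integrins and mineral, and matrix Gla protein (MGP) is a vitamin K-dependent inhibitor of calcification made by chondrocytes and vascular smooth muscle cells. In growth cartilage, mineralisation belongs to the hypertrophic stage, which is marked by collagen X.

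The libraries held 18183776 to 33660704 expected counts, and 17838 genes passed the filter on low counts. Levels are CPM, counts scaled to library size by TMM, unless TPM, which also divide by length, are named. The day 45 library of replicate 1 carries a treatment label that reads 30 days, and it was placed by its title. Placed so, the day 45 libraries held 1080 to 3160 CPM of COL10A1, against 77.6 to 133 CPM at day 30. They held 1.54 to 4.99 CPM of UCMA, against 110 to 188 CPM, and 45.3 to 64.9 CPM of CD68, against 5.19 to 12.5 CPM. These genes were named after their values were seen, and days 30 and 45 did not overlap for 38.3% of genes tested. In day 30 replicates 3, 4 and 5, genes with longer transcripts had lower counts, with Spearman correlations between effective length and deviation from the all-library mean of -0.43, -0.52 and -0.47 across genes, against -0.07 to 0.26 in the other 11 libraries. The 7 chondrocyte markers examined were present at all 3 days, with a summed level of 18000 to 21700 TPM at day 21, 32100 to 81800 TPM at day 30 and 63500 to 93100 TPM at day 45. Most of the sum was COL2A1, at 13400, 42200 and 55100 TPM on average. At day 45 against day 30, 1 of the 7 was higher, 2 were lower and 4 did not pass the test described below. Over all genes 27.6% were higher and 28.7% lower. MATN1 was 1 of the lower, with 130, 556 and 66.3 TPM on average at the 3 days. The 3 hypertrophic markers summed to 37.5 to 74.3 TPM at day 21, 78.8 to 165 TPM at day 30 and 1010 to 2620 TPM at day 45. At day 21 the sum was mostly MMP13, which averaged 45.6, 31.8 and 52.1 TPM at the 3 days. At day 45 it was mostly COL10A1, which averaged 14.8, 71.9 and 1420 TPM. IHH averaged 1.16, 11.4 and 47.3 TPM. These are bulk samples, so fewer cells of a type and less RNA per cell cannot be told apart.

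DMP1, IBSP and SPP1 lie in order along chromosome 4, all on the plus strand, between DSPP and SPP1 in a cluster that spans 374874 bases of GRCh38. DMP1 (ENSG00000152592) runs from 87650307 to 87664361, IBSP (ENSG00000029559) from 87799581 to 87812435 and SPP1 (ENSG00000118785) from 87975650 to 87983426. Over the 14 libraries DMP1 gathered 33631 expected counts and SPP1 17453, whereas IBSP, which lies between them, gathered 42, MEPE 14 and DSPP 4. Their upstream sequences are shown because these neighbours had such unequal counts and because DMP1 and SPP1 went together from library to library, as described further on. Each is the RefSeq plus strand (GRCh38.p14), 170 bases up to the base before the RefSeq start: chr4:87650110-87650279 for DMP1, chr4:87975544-87975713 for SPP1 and chr4:87799384-87799553 for IBSP. These starts differ from the GENCODE gene starts given above. In SPP1 the window runs past the GENCODE start, so its last bases lie inside the gene by those coordinates. In DMP1 and IBSP the window ends before the GENCODE start. Capitals mark, in DMP1 and SPP1, the reversed RUNX core and the runs GGAAGTGTGGG and TTTAAATTC, which both hold; in DMP1 and IBSP, the reversed CCAAT; and, in IBSP, the reversed TATA letters.
DMP1: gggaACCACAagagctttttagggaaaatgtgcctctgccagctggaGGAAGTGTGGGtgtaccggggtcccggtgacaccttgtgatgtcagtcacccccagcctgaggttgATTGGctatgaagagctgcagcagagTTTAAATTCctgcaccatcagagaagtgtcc
SPP1: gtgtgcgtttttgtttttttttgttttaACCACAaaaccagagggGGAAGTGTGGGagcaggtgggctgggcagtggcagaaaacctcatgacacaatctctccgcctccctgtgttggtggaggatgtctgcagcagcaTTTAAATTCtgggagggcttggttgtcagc
IBSP: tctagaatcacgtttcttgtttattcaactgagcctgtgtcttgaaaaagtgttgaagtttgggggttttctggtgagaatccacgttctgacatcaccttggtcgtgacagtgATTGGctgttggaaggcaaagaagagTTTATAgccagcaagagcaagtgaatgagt

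GGAAGTGTGGG was the longest run that the 250 bases before the starts of DMP1 and SPP1 had in common, at 11 bases. It starts at -123 in DMP1 and -125 in SPP1, counted from the RefSeq start, and 20 of 35116 promoters in the table (0.057%, both strands) held it. The run was picked because both windows hold it, so this share does not tell how unusual the sharing is. How often other pairs of promoters share a run as long was not computed. TTTAAATTC, picked out after the sequences were read, lies at -31 to -23 in DMP1 and -30 to -22 in SPP1 and was found in 114 promoters (0.325%); it contains TTTAAA, which 11.3% held. IBSP has TATAAA in reverse at -30 to -25, a motif of 10.7% of promoters. The RUNX core TGTGGT was matched in reverse at -166 to -161 in DMP1 and at -142 to -137 in SPP1, and 11% of promoters have it on either strand. CCAAT, found in 32.0%, was matched in reverse at -57 to -53 in DMP1 and -56 to -52 in IBSP. Letters that match are a description of the sequence, and no binding was measured.

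Between day 21 and day 45 the phosphatases and MGP rose and the importers, DMP1 and SPP1 fell, while ENPP1 and ANKH did not pass the test. By edgeR's quasi-likelihood test with Benjamini-Hochberg adjustment over all genes tested (adjusted p below 0.05), 3 of the 9 genes that passed the filter were higher and 4 lower at day 45 than at day 21. Over all genes tested 27.1% were higher and 30.5% lower, 57.7% in all, so most genes changed between these days and 7 of 9 genes are to be read against that. At day 30 against day 21, 2 were higher and 4 lower, where the background was 27.2% and 27.1%, or 54.4% in all. At day 45 against day 30, 3 were higher and 1 lower, where it was 27.6% and 28.7%, or 56.3%. The later change was above the earlier in 3 genes and below it in 2, against 25.3% and 27.5% of all genes, or 52.7%. The CPM of day 21 and day 45 did not overlap for 3 higher and 3 lower genes, as for 25.3% and 26.2% of all genes tested, 51.5% together. Days 21 and 30 did not overlap for 2 higher and 2 lower genes (background 20% and 22.4%, 42.4% together), and days 30 and 45 for 2 higher and 1 lower (19.8% and 18.6%, 38.3% together). The median log2 fold change of the 9 was -0.06 between day 21 and day 45, beside -0.05 over all genes. IBSP did not pass the filter. The comparisons share libraries, so their values are given side by side.

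**Figure D1:**
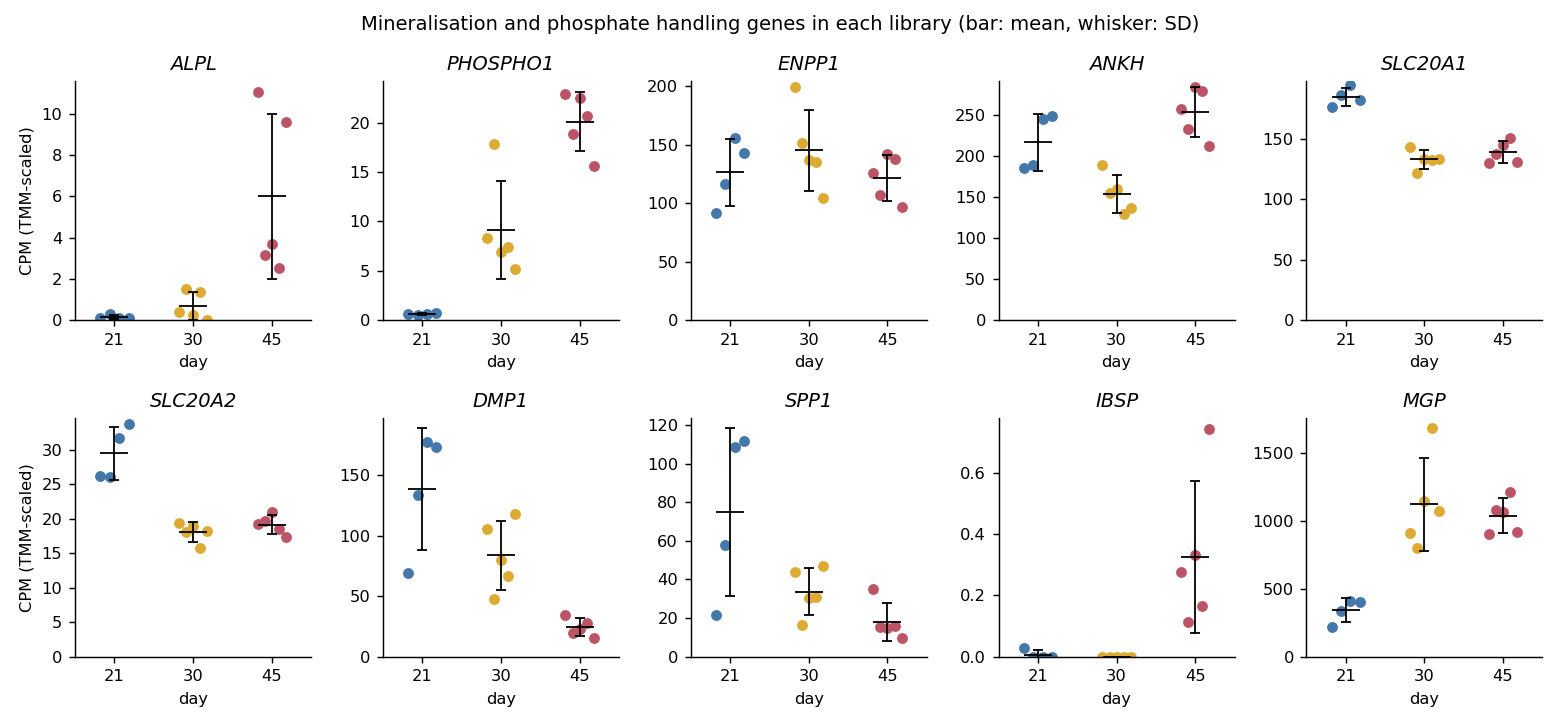
Level of each gene in each library (vertical axes, CPM after TMM scaling, starting at 0) against day in culture; each point is 1 library, the bar is the mean and the whisker the SD (n = 4, 5 and 5). PHOSPHO1 was already between 5.23 and 17.9 CPM at day 30, whereas ALPL stayed at 0 to 1.52 CPM until day 45, and DMP1 and SPP1 go down over the days.

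**Figure D2:**
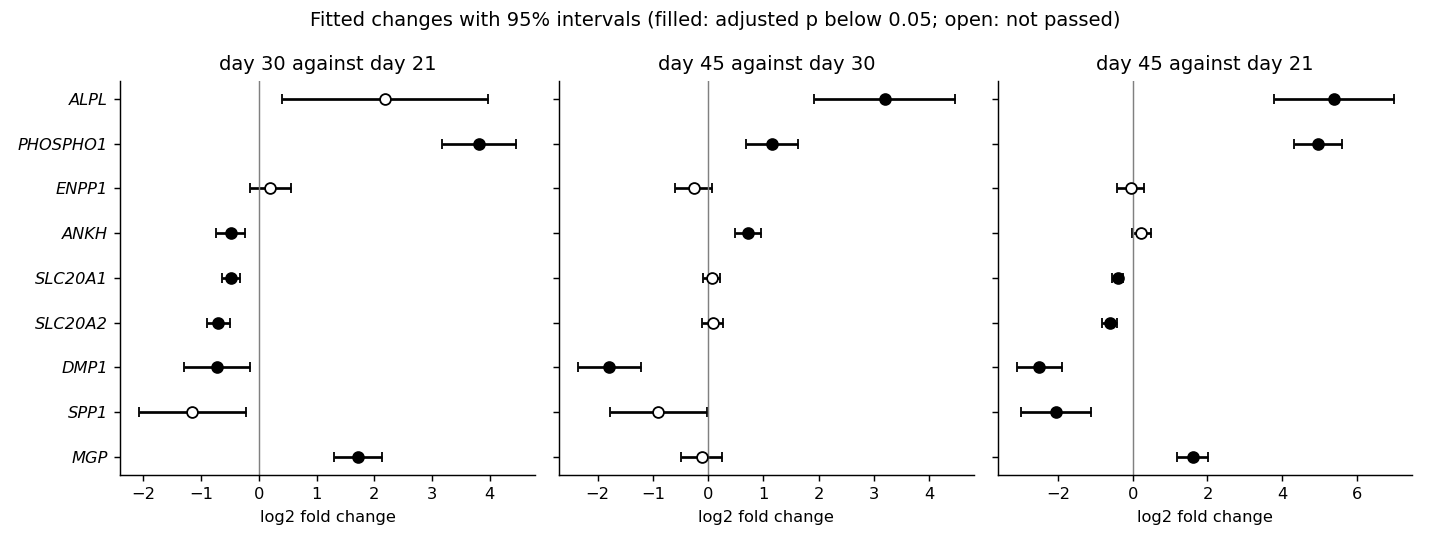
Fitted log2 fold changes (horizontal axes) of the 9 genes that passed the filter, for the 3 comparisons of days; points are estimates, bars are 95% intervals, and filled points have an adjusted p below 0.05. The horizontal scales differ between the panels. ALPL and PHOSPHO1 have the highest values at day 45 against day 21, and ENPP1 is open in every panel.

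ALPL (ENSG00000162551, chromosome 1, 21509372 to 21578412, plus strand) was close to the limit of detection until day 30. At day 21 the 4 libraries held 0.0834, 0.279, 0.103 and 0.085 CPM, or 3, 11, 4 and 3 counts. At day 30 the 5 libraries held 0.383, 1.52, 0.232, 1.34 and 0 CPM, from 27 counts down to 0. At day 45 they held 11.03, 3.15, 3.67, 2.51 and 9.60 CPM, or 281, 84, 100, 61 and 233 counts. All day 45 libraries lay above all others, with replicates 1 and 5 well above the rest of that day, and the libraries of days 21 and 30 overlapped. COL10A1, the collagen X gene, was also highest in day 45 replicates 1 and 5, at 2483 and 1721 TPM, against 909 to 1035 TPM in the other 3; whether the share of hypertrophic cells took part in the ALPL values was not tested.

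ALPL was higher at day 45 than at day 21 by 5.38 ± 0.82 (log2, SE; adjusted p = 4.03e-05), a 41.5-fold change of the fitted means. Against day 30 the change was 3.19 ± 0.65 (adjusted p = 0.000728). Day 30 against day 21 gave 2.19 ± 0.91 and did not pass the test (adjusted p = 0.0536). It passed in 8 of 25 alternatives, among them DESeq2 (2.33, adjusted p = 0.0244) and leaving out day 30 replicate 3 or 5 or day 45 replicate 1 or 4, with adjusted p of 0.0418, 0.0121, 0.0433 and 0.0457. On log2(TPM + 1) it was 0.28 (adjusted p = 0.437). With so few counts the summed counts are a plainer measure: 21 counts at day 21, 69 at day 30 and 759 at day 45, which is 0.141 CPM (exact Poisson 95% interval 0.087 to 0.215), 0.618 CPM (0.481 to 0.782) and 5.93 CPM (5.52 to 6.37). The ratio of day 45 to day 21 was 42.2 (27.4 to 68.6) and that of day 45 to day 30 was 9.6 (7.5 to 12.5), intervals that cover counting error only. The rise from day 30 was still called without the library with 2 labels (2.84, adjusted p = 0.00222). It was not called with that library placed at day 30, against its title (0.96, adjusted p = 0.424). In that placement ALPL at day 30 against day 21 was 4.08 (adjusted p = 0.0152). Per length, ALPL stayed a low transcript, with 4.04 ± 2.53 TPM at day 45 (SD, n = 5), above 39.8% of the genes tested.

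PHOSPHO1 (ENSG00000173868, chromosome 17, 49223362 to 49230766, minus strand) had already risen at day 30. It stood at 0.667, 0.532, 0.621 and 0.765 CPM at day 21. The day 30 libraries held 8.34, 17.9, 6.90, 7.39 and 5.23 CPM, so that each lay above every day 21 library and replicate 2 stood apart from the rest. The day 45 libraries held 22.9, 18.9, 22.6, 20.7 and 15.6 CPM, all but the last above day 30 replicate 2. The change was 3.81 ± 0.33 from day 21 to day 30 (adjusted p = 9.34e-08), 1.15 ± 0.24 from day 30 to day 45 (adjusted p = 0.000762) and 4.96 ± 0.33 over the whole span (adjusted p = 1.86e-09), or 31.0-fold. The later change was smaller than the earlier by 2.66 ± 0.46 (log2; a difference of -2.66, adjusted p = 0.000186). Without day 30 replicates 3 to 5 the later change was 0.62 (adjusted p = 0.0489), and with the library of 2 labels placed at day 30 it was 0.77 (adjusted p = 0.081).

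For ALPL the later minus the earlier change was 1.0 ± 1.43 (adjusted p = 0.58). Over 24 alternatives it ranged from -3.13 to 2.38, and 1 of them passed (adjusted p = 0.0363). Whether the timing differs between ALPL and PHOSPHO1 was not tested. Within a library, the log2 ratio of PHOSPHO1 to ALPL TPM was 1.76 ± 0.66 at day 21 (SD, n = 4), 4.27 ± 1.08 at day 30 and 2.70 ± 1.08 at day 45 (SD, n = 5 each), with 0.1 added to each TPM. PHOSPHO1 was above ALPL in all 14 libraries. With 1 added the first 2 ratios were 0.68 and 2.73.

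The pyrophosphate suppliers were abundant from the start and changed little over the whole span. ENPP1 (ENSG00000197594, chromosome 6, 131808016 to 131895155, plus strand) stood at 91.4, 116, 155.6 and 142.4 CPM at day 21. It stood at 198.9, 151, 136.7, 134.8 and 104.1 CPM at day 30 and at 125.3, 106.5, 141.6, 137.6 and 96.7 CPM at day 45. The 3 days overlapped. Day 45 against day 21 gave -0.06 ± 0.18 (adjusted p = 0.805), with a 95% interval of -0.40 to 0.29.

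ENPP1 is a long transcript, and its effective length was highest in the day 30 libraries with the length trend. Its effective length, an average over its transcripts weighted by their estimated use, was 5249 to 5477 bases at day 21 and 4856 to 5261 at day 45. At day 30 it was 5551 and 5881 bases in replicates 1 and 2 and 6949, 6977 and 6756 in replicates 3, 4 and 5, the libraries in which long genes were low. Day 30 against day 21 was 0.20 ± 0.18 (adjusted p = 0.358) in the count fit, 0.46 (adjusted p = 0.083) without replicates 3 to 5, and 0.70 (adjusted p = 0.000757) with an offset for effective length. On log2(TPM + 1) it was -0.49 (adjusted p = 0.0882), where the median over all genes was -0.35. The sign of the ENPP1 estimate at day 30 thus differed between scales, and neither the count fit nor log2(TPM + 1) passed the test. The reason for the difference was not tested. With the offset, day 45 against day 30 was -0.66 (adjusted p = 0.000647), and without replicates 3 to 5 it was -0.54 (adjusted p = 0.0428), against -0.26 ± 0.17 (adjusted p = 0.205) in the count fit.

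ANKH (ENSG00000154122, chromosome 5, 14704800 to 14871785, minus strand) dipped at day 30. Its levels were 185.2, 189.1, 245.8 and 249.0 CPM at day 21, then 189.9, 154.9, 159.5, 130 and 137 CPM at day 30, and 257.5, 233.1, 284.1, 280.1 and 212.7 CPM at day 45. Day 30 replicate 1 reached into the day 21 range, and no day 30 library reached the lowest of day 45. ANKH fell by 0.49 ± 0.13 from day 21 to day 30 (adjusted p = 0.0042) and rose by 0.72 ± 0.12 from day 30 to day 45 (adjusted p = 0.000132). The difference of these steps was 1.21 ± 0.22 (adjusted p = 0.000274). Over the whole span the value was 0.22 ± 0.13 (adjusted p = 0.159, 95% interval -0.04 to 0.48). The fall at day 30 was -0.34 and did not pass the test without day 30 replicates 3 to 5 (adjusted p = 0.0813) or with the library of 2 labels placed at day 30 (-0.34, adjusted p = 0.127).

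Per length ANKH was the more abundant of the pair. Its mean was 198, 108 and 187 TPM at days 21, 30 and 45, beside 48.3, 35.3 and 35.8 TPM for ENPP1, a ratio of ANKH to ENPP1 of 4.18, 3.21 and 5.21. ALPL, which acts on the product of ENPP1, was the far lower transcript: ENPP1 was 152-fold above ALPL at day 21, 72.4-fold at day 30 and 10-fold at day 45. The log2 ratio of ALPL to ENPP1 was -7.25 ± 0.72 (SD, n = 4), -6.18 ± 1.25 and -3.32 ± 1.03 (SD, n = 5 each). It was highest in day 45 libraries, which ranged from -4.50 to -2.24, above the day 21 range of -8.30 to -6.73 and overlapping none of day 30, which ended at -4.89. With 1 in place of 0.1 added to each TPM, the mean was -5.29 at day 21 and -4.52 at day 30.

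**Figure D3:**
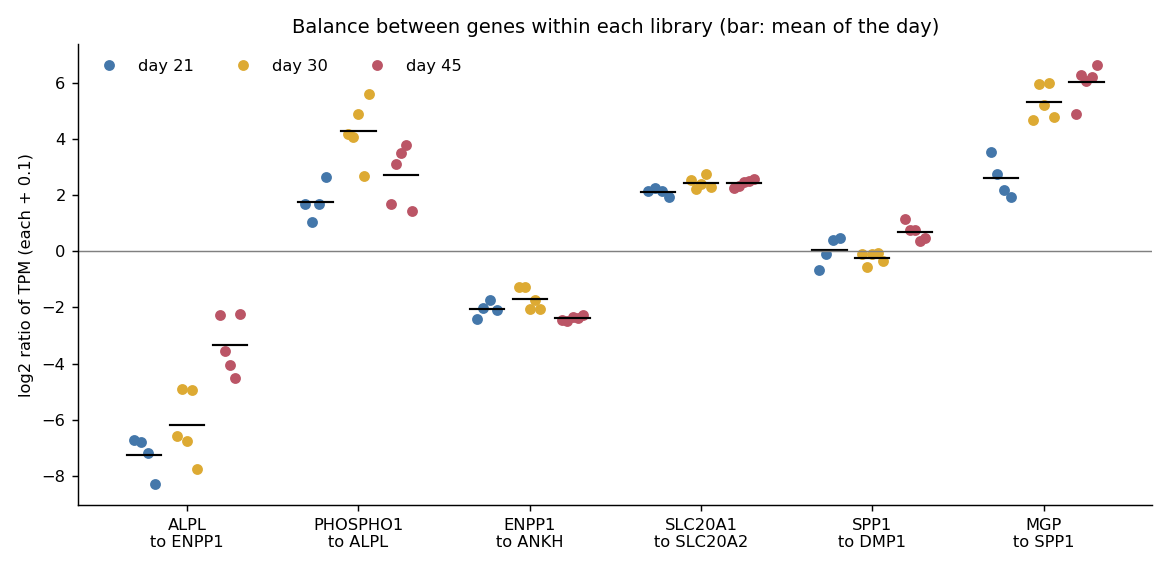
Log2 ratio of the TPM of paired genes within each library (vertical axis, 0.1 added to each TPM); each point is 1 library coloured by day and the bar is the mean of the day. ALPL comes closer to ENPP1 at day 45, with -4.50 to -2.24, and the ratio of MGP to SPP1 is higher at days 30 and 45 than at day 21.

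The phosphate importers fell by day 30, and neither passed the test between day 30 and day 45. SLC20A1 (ENSG00000144136, chromosome 2, 112645857 to 112663827, plus strand) had 176.9, 187, 194.6 and 182.2 CPM at day 21, 143.6, 121.8, 133.8, 133.1 and 133.6 CPM at day 30, and 129.9, 137.7, 145.6, 151.1 and 131.5 CPM at day 45. Every day 21 library was above every later one, and days 30 and 45 overlapped. It was the steadiest of the 10 genes within a day, with coefficients of variation of 4.05%, 5.78% and 6.53%. The fall was -0.48 ± 0.08 at day 30 (adjusted p = 0.000101) and -0.41 ± 0.08 at day 45 against day 21 (adjusted p = 0.000311). Day 45 against day 30 was 0.06 ± 0.08 (adjusted p = 0.5, 95% interval -0.09 to 0.21).

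SLC20A2 (ENSG00000168575, chromosome 8, 42416475 to 42541926, minus strand) was the lower of the importers, with 26.3, 26.1, 31.8 and 33.8 CPM at day 21. It had 19.4, 18.04, 19.03, 15.7 and 18.2 CPM at day 30 and 19.3, 19.7, 20.9, 18.5 and 17.4 CPM at day 45. Again each day 21 library was above all later ones. The fall was -0.70 ± 0.10 at day 30 (adjusted p = 1.98e-05) and -0.62 ± 0.10 at day 45 (adjusted p = 4.98e-05), and day 45 against day 30 was 0.08 ± 0.10 (adjusted p = 0.491, 95% interval -0.11 to 0.27). The gene overlaps SMIM19 on the opposite strand, which had at most 299 counts in a library, and reads of the 2 strands cannot be told apart with this kit. Per length SLC20A1 was 4.33-, 5.41- and 5.35-fold above SLC20A2 at days 21, 30 and 45.

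The later step differed from the earlier for both importers, by 0.54 ± 0.14 for SLC20A1 (adjusted p = 0.00333) and 0.79 ± 0.17 for SLC20A2 (adjusted p = 0.00122). With the length offset the SLC20A1 value was 0.30 (adjusted p = 0.0882). Each gene's centred log2 CPM over the 14 libraries differed from the other's by a root mean square of 0.15, and 1.5% of the genes tested lay closer to SLC20A1 than SLC20A2 did. These points share their libraries, and the closeness is a description.

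DMP1 fell at the later step and SPP1 over the whole span. DMP1, which in bone is chiefly a product of osteocytes, was among the abundant transcripts at day 21, above 93.6% of genes tested per length. Its levels were 69.5, 133.9, 177.5 and 173.4 CPM at day 21, 105.7, 47.8, 80.1, 67.0 and 118 CPM at day 30, and 34.9, 19.7, 22.6, 28.3 and 15.9 CPM at day 45. All day 45 libraries were below all others, and days 21 and 30 overlapped. DMP1 fell by 2.51 ± 0.31 from day 21 to day 45 (adjusted p = 4.11e-06) and by 1.79 ± 0.29 from day 30 (adjusted p = 0.00011). Day 30 against day 21 was -0.73 ± 0.29 at an adjusted p of 0.0477, and that call was lost in 15 of 25 alternatives, among them leaving out 9 of the 14 libraries in turn, with adjusted p up to 0.146 there and 0.178 without day 30 replicates 3 to 5.

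SPP1, whose protein is found in mineralised matrix and is also secreted by macrophages and osteoclasts, had 21.8, 57.6, 108.8 and 111.6 CPM at day 21. It had 43.9, 16.3, 30.4, 30.7 and 47.0 CPM at day 30 and 35.1, 15.2, 14.7, 15.8 and 9.60 CPM at day 45. Day 21 replicate 1 lay among the later libraries, and day 45 replicate 1 was above it, so the days overlapped. SPP1 fell by 2.05 ± 0.48 from day 21 to day 45 (adjusted p = 0.00241). Neither single step passed the test, with -1.15 ± 0.47 at day 30 against day 21 (adjusted p = 0.0523) and -0.90 ± 0.45 at day 45 against day 30 (adjusted p = 0.109). The first passed in 11 of 25 alternatives, among them leaving out day 21 replicate 1 (-1.46, adjusted p = 0.00724). Without day 45 replicate 1 the steps were -1.15 (adjusted p = 0.0296) and -1.28 (adjusted p = 0.0235).

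Library by library, SPP1 followed DMP1. At day 21 both were lowest in replicate 1, next in replicate 2 and highest in replicates 3 and 4. At day 30 both were lowest in replicate 2 and highest in replicates 1 and 5, and at day 45 both were lowest in replicate 5 and highest in replicate 1. Among 9980 candidate genes DMP1 was the closest to SPP1, with a root mean square difference of centred log2 CPM of 0.46 over the 14 libraries, ahead of CHST15 (0.48) and BMP8B (0.49). The closest to DMP1 were INKA1 (0.43), S100A4 (0.45) and BMP4 (0.45), and 0.0673% of genes tested were closer to it than SPP1. These are likenesses of profiles over libraries that share days and depth, given with no test. Per length the log2 ratio of SPP1 to DMP1 was 0.03 ± 0.53 at day 21 (SD, n = 4), -0.23 ± 0.22 at day 30 and 0.70 ± 0.30 at day 45 (SD, n = 5 each), which places SPP1 above DMP1 in all day 45 libraries and below it in all day 30 libraries.

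**Figure D4:**
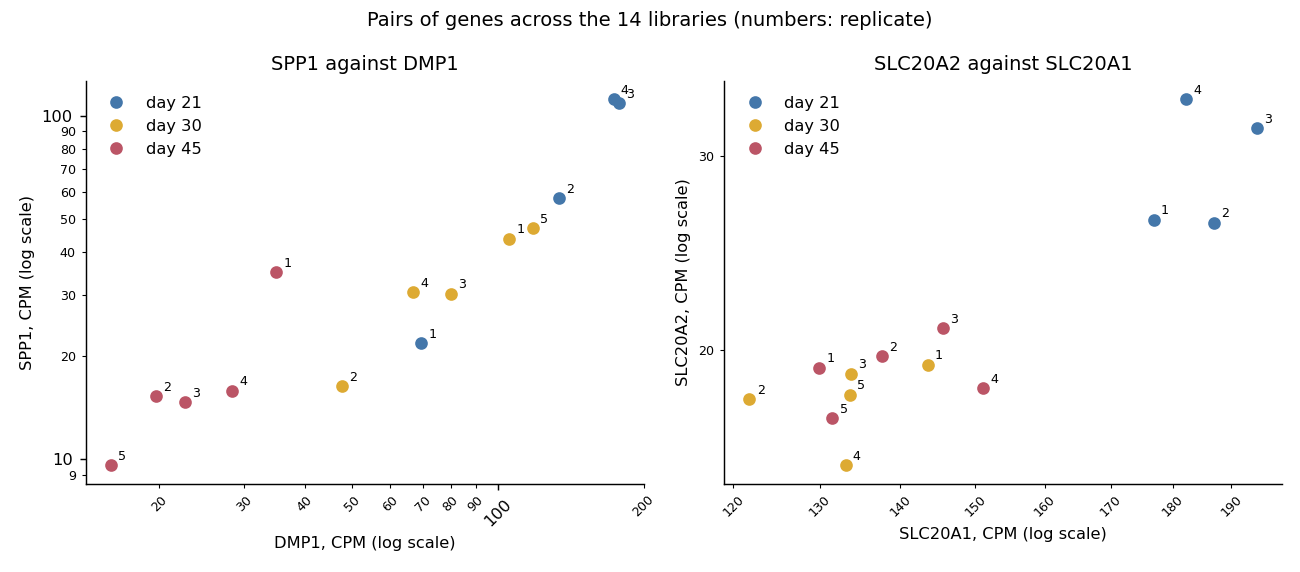
SPP1 against DMP1 (left) and SLC20A2 against SLC20A1 (right) in each library, in CPM on log axes that do not start at 0; points are libraries coloured by day and numbered by replicate. SPP1 and DMP1 line up from day 45 replicate 5 (9.60 and 15.9 CPM) to day 21 replicates 3 and 4, and the day 21 libraries of the importers stand apart from the rest.

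IBSP, a sialoprotein that in bone goes with osteoblasts and mineral, was at trace level. Day 21 replicate 1 held 1 count and the other 3 held 0, and all 5 day 30 libraries held 0. The 5 day 45 libraries held 7, 3, 9, 4 and 18 counts, so each of them had some. Summed, this is 0.00669 CPM at day 21 (exact Poisson 95% interval 0.000169 to 0.0373) and 0.321 CPM at day 45 (0.230 to 0.435), a ratio of 47.9 (8.13 to 1940). Against day 30, where 0 counts allow up to 0.0269 CPM by a floor of 3 counts over the group, day 45 was at least 11.9-fold higher than that floor, and the exact conditional interval of the ratio starts lower, at 9.27. These intervals cover counting error only. In a fit with no filter on low counts, day 45 against day 21 had an adjusted p of 0.000143 and day 45 against day 30 one of 6.61e-05. DMP1 had 386 to 888 counts in the same day 45 libraries, so the neighbours of the cluster differed in level as well as in direction.

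Markers of osteoclasts, macrophages and osteocytes, which make SPP1 or DMP1, were examined beside these falls. The 6 osteoclast markers summed to 32.8 to 47.4 TPM at day 21, 15.6 to 26.9 TPM at day 30 and 6.81 to 13.2 TPM at day 45, and nearly all of it was CTSK, at 38.6, 21.1 and 7.76 TPM on average. CALCR, the calcitonin receptor of osteoclasts, was at 0.05 TPM or less in every library and DCSTAMP at 0.42 TPM or less. Of the 6 macrophage markers TYROBP had no count in any library and PTPRC at most 0.14 TPM; the sum, 60.0 to 70.2, 42.5 to 66.7 and 55.8 to 77.5 TPM, was made of AIF1 and CD68, which moved in opposite directions. CD68 rose by 5.64 ± 0.26 from day 21 to day 45 (adjusted p = 2.63e-11), from 2.07 to 56.6 TPM on average, and AIF1 fell by 2.35 ± 0.30 (adjusted p = 3.47e-06), from 63.4 to 9.01 TPM. The 5 osteocyte markers summed to 57.5 to 77.1, 162 to 328 and 391 to 643 TPM, nearly all from PDPN, with SOST at 0.1 TPM or less and MEPE at 0.13 TPM or less. CTSK, AIF1 and, in the osteocyte list, PHEX (-1.02 ± 0.20, adjusted p = 0.000326) moved down with DMP1 and SPP1, while CD68, PDPN (3.09 ± 0.19, adjusted p = 4.95e-10) and OSCAR (1.97 ± 0.44, adjusted p = 0.00096) moved up. The part of these cell types in the falls was not tested.

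MGP (ENSG00000111341, chromosome 12, 14881181 to 14885926, minus strand) was the most abundant of the 10 genes at every day, above 98.9%, 99.4% and 99.3% of genes tested in TPM. It had 218, 337, 409.3 and 400.6 CPM at day 21, 909.2, 799.1, 1144, 1684 and 1072 CPM at day 30, and 902.4, 1082, 1065, 1213 and 915.2 CPM at day 45. All later libraries were above all day 21 libraries, and days 30 and 45 overlapped. MGP rose by 1.72 ± 0.21 from day 21 to day 30 (adjusted p = 4.16e-06), or 3.29-fold, and was 1.60 ± 0.21 higher at day 45 than at day 21 (adjusted p = 5.35e-06), or 3.03-fold. Day 45 against day 30 was -0.12 ± 0.19 (adjusted p = 0.626, 95% interval -0.49 to 0.26). The later step was below the earlier (-1.83 ± 0.33, adjusted p = 0.000231). MGP overlaps C12orf60 on the opposite strand, which had at most 62 counts in a library.

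Smooth muscle also makes MGP. Of its 5 markers 1 was higher at day 45 than at day 21, 2 were lower and 2 did not pass. Over all genes 27.1% were higher and 30.5% lower, 57.7% in all, so the count is near that share. The summed levels were 647 to 744 TPM at day 21, 251 to 638 TPM at day 30 and 147 to 246 TPM at day 45. The sum was mostly TAGLN, at 648, 351 and 159 TPM on average, which fell by 1.52 ± 0.21 (adjusted p = 1.19e-05), while DES rose by 2.68 ± 0.25 (adjusted p = 8.81e-08) from 3.18 to 11.3 TPM. The part of these cells in the MGP values was not tested. The 5 endothelial markers summed to 8.80 to 12.4, 1.99 to 4.11 and 2.39 to 3.49 TPM, with CDH5 at 0 counts in all libraries. The ratio of MGP to SPP1 in TPM went from 6.07 at day 21 to 39.9 at day 30 and 64.5 at day 45, as log2 values of 2.60 ± 0.71 (SD, n = 4), 5.32 ± 0.63 and 6.01 ± 0.66 (SD, n = 5 each). The genes with the profiles closest to MGP were FABP3 (0.26), LGALS3 (0.32) and FBXO2 (0.32).

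Other likenesses, by the same measure over the 14 libraries, were as follows. Closest to PHOSPHO1 were FOXA2 (0.37), a transcription factor with 0.438, 7.42 and 18.8 CPM at the 3 days, then NRCAM (0.42) and KLF15 (0.44). ALPL had no close match, with RCAN2 at 0.97 and DCLK1 at 1.0, and PHOSPHO1 at 1.46, closer to it than all but 1.01% of genes tested. Closest to ANKH were ACTR3 (0.08), NXPE3 (0.11) and CTNNB1 (0.11), which also had their lowest mean at day 30. Closest to ENPP1 were SCRN3 (0.15), GALNT13 (0.16) and PDGFC (0.16). CC2D2A (0.07), NIPA2 (0.08) and SCO1 (0.09) were closest to SLC20A1, and GALNT10 (0.10), ZC3H7B (0.11) and IQCE (0.11) to SLC20A2. Genes of high counts and little change have small differences by this measure, so values of different genes are not on a par.

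In order of mean TPM, day 21 ran from MGP (705) through ANKH (198), SPP1 (136), SLC20A1 (135), DMP1 (117), ENPP1 (48.3), SLC20A2 (31.2) and PHOSPHO1 (0.965) to ALPL (0.228) and IBSP (0.01). SPP1, SLC20A1 and DMP1 did not differ beyond their spread there, since SPP1 had an SD of 81.8 and DMP1 one of 45.1. At day 45 the order was MGP (1520), ANKH (187), SLC20A1 (73.5), ENPP1 (35.8), SPP1 (25.2), PHOSPHO1 (23.4), DMP1 (14.9), SLC20A2 (13.6), ALPL (4.04) and IBSP (0.358). SPP1 and PHOSPHO1 were within their SDs of 11.8 and 4.19, as were DMP1 and SLC20A2 with 4.32 and 1.28. PHOSPHO1 moved from above 14.7% of genes tested to above 73.5%, and DMP1 from above 93.6% to above 64.3%.

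The rest of the pathway was read from 5 lists of 50 genes in all, whose counts stand beside 27.1% higher and 30.5% lower, 57.7% called in all, over the genes tested between day 21 and day 45. Of 14 genes of phosphate and pyrophosphate transport and turnover, 8 were tested. At day 45 against day 21, 2 were higher, 1 was lower and 5 did not pass, with a median log2 fold change of 0.21. Thus 3 of 8 were called, beside 57.7% of all genes, a difference that was not tested in so few genes. NT5E, the ecto-nucleotidase CD73 that makes adenosine, rose by 2.22 ± 0.20 (adjusted p = 5.94e-08), with 8.30 ± 1.95 CPM at day 21 (SD, n = 4) and 38.7 ± 9.64 CPM at day 45 (SD, n = 5). ABCC6, a transporter tied to ATP release and pyrophosphate, rose by 0.79 ± 0.21 (adjusted p = 0.00364), and the nucleoside transporter SLC29A1 fell by 0.54 ± 0.12 (adjusted p = 0.000706). XPR1, the phosphate exporter, was named after its values were seen. It stood at 35.1 ± 3.41 CPM at day 21 (SD, n = 4), 12.7 ± 4.62 at day 30 and 40.6 ± 3.79 at day 45 (SD, n = 5 each), a fall of 1.46 ± 0.18 (adjusted p = 5.33e-06) and a rise of 1.67 ± 0.18 (adjusted p = 1.35e-06). Its effective length averaged 4763, 6231 and 4748 bases at the 3 days. Whether the length trend of day 30 took part in the XPR1 values was not tested.

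Of 10 genes of phosphate hormones and their processing, 8 were tested, 4 were higher, 2 lower and 2 did not pass at day 45 against day 21 (27.1% higher and 30.5% lower over all genes), with a median of 1.03. PTH1R, the receptor of parathyroid hormone and PTHrP, rose by 4.08 ± 0.27 (adjusted p = 1.81e-09), with 33.7 ± 13.4 CPM at day 21 (SD, n = 4), 261 ± 34.3 at day 30 and 570 ± 167 CPM at day 45 (SD, n = 5 each). GALNT3, which glycosylates FGF23, rose by 2.18 ± 0.23 (adjusted p = 2.69e-07), and the vitamin D receptor VDR by 1.90 ± 0.15 (adjusted p = 8.41e-09). FAM20C, the kinase that phosphorylates DMP1, SPP1 and IBSP in the secretory pathway, rose by 1.62 ± 0.15 (adjusted p = 4.66e-08). It had 25.8 ± 3.46 CPM at day 21 (SD, n = 4) and 79.5 ± 13.5 CPM at day 45 (SD, n = 5). Of its substrates, DMP1 and SPP1 fell, while IBSP, at trace level, had 1 summed count at day 21 and 41 at day 45.

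All 4 matrix vesicle genes passed, 3 higher and 1 lower, where 27.1% and 30.5% of all genes were, with a median of 0.77. SMPD3, a sphingomyelinase that acts in the same vesicle lipid pathway as PHOSPHO1, rose by 3.11 ± 0.52 (adjusted p = 0.000135), with 1.83 ± 0.416 CPM at day 21 (SD, n = 4), 9.17 ± 7.71 at day 30 and 15.8 ± 7.88 CPM at day 45 (SD, n = 5 each). The annexins ANXA2 and ANXA5 rose by 0.98 ± 0.13 (adjusted p = 7.21e-06) and 0.56 ± 0.09 (adjusted p = 7.61e-05), and ANXA6 fell by 0.65 ± 0.11 (adjusted p = 0.000109).

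Of 12 other mineral-binding and Gla proteins and vitamin K cycle genes, 7 were tested, 4 were higher, 1 lower and 2 did not pass, beside 27.1% higher and 30.5% lower over all genes, with a median of 0.68. UCMA, a Gla protein of chondrocytes like MGP, fell by 3.23 ± 0.30 over the whole span (adjusted p = 1.72e-07), but its mean was highest at day 30, with 32.0 ± 9.89 CPM (SD, n = 4), 153 ± 33.0 and 3.42 ± 1.39 CPM (SD, n = 5 each). It rose by 2.26 ± 0.28 to day 30 (adjusted p = 7.11e-06) and fell by 5.49 ± 0.31 after it (adjusted p = 6.34e-09), a step at which MGP was -0.12 ± 0.19. VKORC1, which recycles the vitamin K that Gla proteins need, rose by 1.41 ± 0.11 (adjusted p = 1.05e-08), with 37.4, 101 and 99.7 CPM on average at the 3 days. GAS6, another Gla protein, rose by 3.22 ± 0.17 (adjusted p = 7.99e-11), and SPARC, a collagen-binding matrix protein, by 1.15 ± 0.15 (adjusted p = 4.77e-06).

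Of 10 transcription factors of osteoblasts and hypertrophic chondrocytes, 9 were tested, 4 were higher, 2 lower and 3 did not pass, so that 6 of 9 were called, near the 57.7% of all genes, with a median of 0.52. SP7, which osteoblasts require, rose by 3.61 ± 0.30 (adjusted p = 2.67e-08), with 0.781 ± 0.310 CPM at day 21 (SD, n = 4) and 9.62 ± 3.79 CPM at day 45 (SD, n = 5), and RUNX3 by 3.04 ± 0.37 (adjusted p = 2.02e-06). MEF2C, a regulator of hypertrophy, rose by 1.64 ± 0.21 (adjusted p = 3.47e-06) and ATF4 by 1.04 ± 0.13 (adjusted p = 3.24e-06). RUNX2, named after its values were seen, fell by 0.51 ± 0.16 (adjusted p = 0.00985), with 42.5 ± 6.81 CPM at day 21 (SD, n = 4) and 29.9 ± 2.90 CPM at day 45 (SD, n = 5). The medians of the 5 lists stand beside -0.05 over all genes tested, and the lists were compared with no set test.

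**Figure D5:**
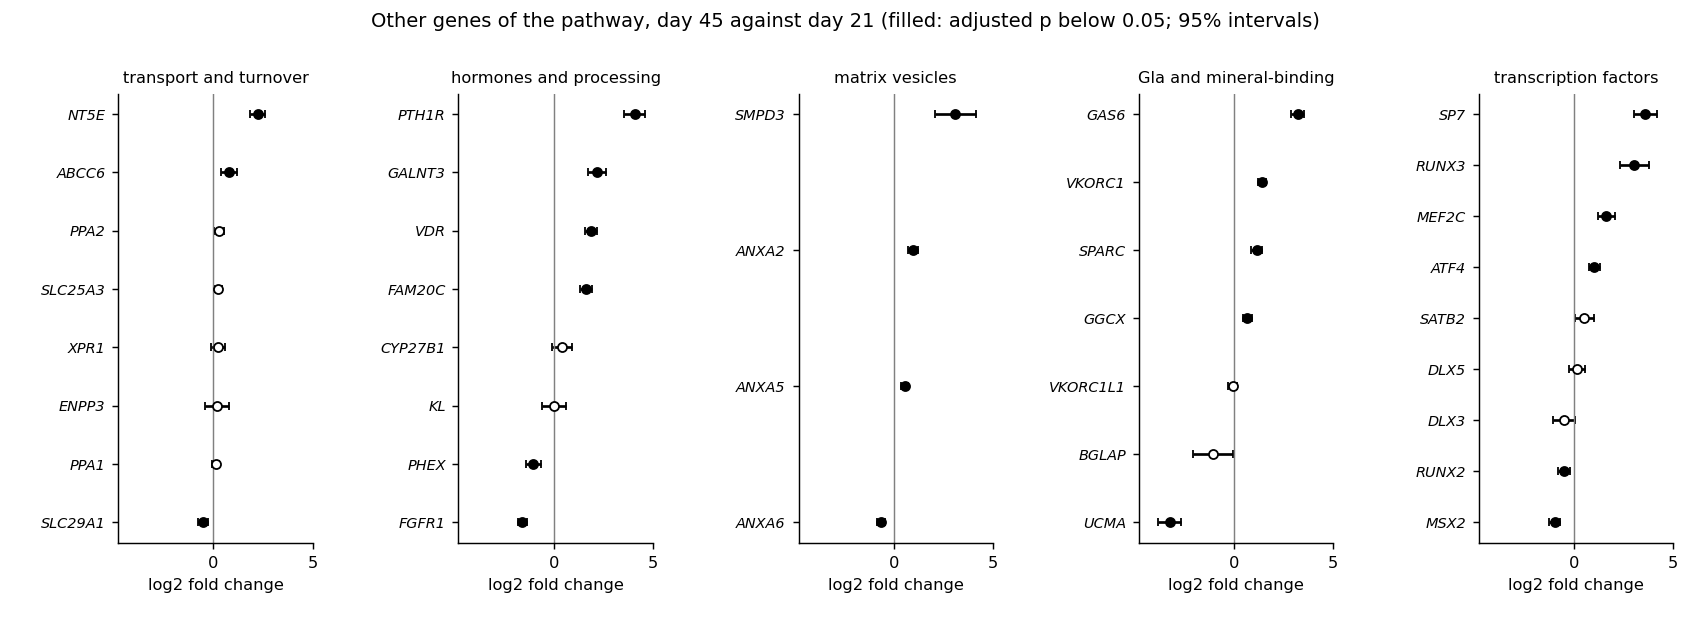
Log2 fold change at day 45 against day 21 (horizontal axes) of the tested genes in the 5 pathway lists, 1 panel a list; points are estimates, bars 95% intervals, and filled points have an adjusted p below 0.05. PTH1R (4.08), SP7 (3.61), GAS6 (3.22) and SMPD3 (3.11) lie far to the right and UCMA (-3.23) far to the left, and most genes of transport and turnover lie near 0.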

How the data were processed

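RNA of 14 whole pellet libraries was measured by RNA-seq. Per the labels' protocols, RNA was extracted with an RNeasy micro kit and libraries were made with the TruSeq v2 kit, which does not mark strand. Per the submitters' processing notes, STAR 2.4.2a, RSEM 1.2.25 and GRCh38 were used. Which annotation release they counted on was not given in the sources used here. Per the file headers, the authors deposited an expected count, TPM and an effective length in bases for each gene.

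Expected counts, which the authors' RSEM estimates, were rounded to whole numbers. Genes were filtered with filterByExpr, scaled by TMM, and tested in edgeR 4.0.16 (R 4.3.3) by the robust quasi-likelihood F-test in 1 fit with a mean per day, with Benjamini-Hochberg adjustment over 17838 genes and a threshold of 0.05. The later minus the earlier change is a contrast of that fit. The code was tested on simulated data. The deposited TPM was used for levels per length and their ratios (0.1 added). An overlap is any shared range of CPM between days.

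The 10 genes and all lists were chosen with earlier results of these data known. Named were the 10 genes, up to 4 called genes per pathway list with the largest change between day 21 and day 45, and the 3 closest profiles per gene (at least 10 CPM at their highest day; log2 CPM with a prior count of 2, centred); some genes that this rule names are not reported here. Coordinates are from GENCODE 29, in which each of the 10 genes is protein-coding. RefSeq promoters (GRCh38.p14) were matched for 8 genes; that of SLC20A2 was not used here.

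Also run were edgeR with size factors of DESeq2, DESeq2 1.42.0, limma 3.58.1 on log2(TPM + 1) and log2(TPM + 0.1), other filters, fits of the days compared alone, a replicate block, an offset for effective length, the library with 2 labels placed at day 30, day 30 replicates 3 to 5 left out, and each library left out in turn. Same-numbered libraries of different days did not deviate together (13 pairs, correlations -0.25 to 0.12), so numbers were not taken to pair them. Chi-square per degree of freedom between replicates was 7.98 to 175, far above sampling noise.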

Additional observations from a re-analysis of the deposited data

Results flagged for a closer look

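Of 29 sets of libraries examined (10 genes at 3 days, without IBSP at day 30, where all are 0), 4 held a library whose gap to the nearest other was large for the range of its group. For continuous values the rule flags about 1 in 20 sets by chance. That rate does not hold for sets of a few counts, as of ALPL and IBSP at day 21. The sets also share libraries, so 4 of 29 is a description. ALPL stood at 0.279 CPM in day 21 replicate 2, against 0.0834 to 0.103 CPM in the others, a difference of a few counts; without that library the change of ALPL from day 21 to day 45 was 5.97. PHOSPHO1 stood at 17.9 CPM in day 30 replicate 2, against 5.23 to 8.34 CPM, and without it the later minus the earlier change was -1.90 and was still called. SPP1 stood at 35.1 CPM in day 45 replicate 1, the library with 2 labels, against 9.60 to 15.8 CPM. IBSP stood at 0.0278 CPM in day 21 replicate 1, which is 1 count, against 0 in the others.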

How the results depend on the processing

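Over the alternatives, 839 log2 fold changes of the 9 tested genes kept their side of the threshold, 31 passed it and 21 lost it. None that was called in the main fit or in the alternative turned its direction. Some values called in neither changed sign, among them ENPP1 at day 45 against day 21, which ranged from -0.40 to 0.06. Another was the later minus the earlier change of ALPL, which ranged from -3.13 to 2.38. Between day 21 and day 45 the calls of all 9 held in each of the 25 alternatives. The replicate block, which pairs libraries by number only, changed 1 call among the 9, DMP1 at day 30 against day 21 (-0.79, adjusted p = 0.0678). The ALPL change from day 21 to day 45 was 1.90 on log2(TPM + 1) and 3.53 on log2(TPM + 0.1), scales that compress low values. On log2(TPM + 1) limma called 2140 genes higher and 8720 lower at day 45 against day 21, 1788 and 9032 at day 30 against day 21, and 7348 and 2331 for the later minus the earlier change; on log2(TPM + 0.1) the counts were 2119 and 8641, 1749 and 8892, and 7083 and 2356. In the first of these scales the median of all genes was -0.34, -0.35 and 0.37 in those comparisons, and 1 of the 9 genes rather than 2 was lower for the later minus the earlier change. At day 45 against day 30, 2 of the 9 were lower instead of 1 in the fit of those days alone, with the length offset, without day 30 replicates 3 to 5 and with the library of 2 labels at day 30, where also 3036 genes and 1 of the 9 were higher; leaving out a library gave 1 to 2. Without day 30 replicates 3 to 5, 2 of the 9 were lower at day 30 against day 21, and 2848 genes were above and 2811 below for the later minus the earlier change. With 1 added, the log2 ratios of ALPL to ENPP1 were -5.29 and -4.52 at days 21 and 30 and those of PHOSPHO1 to ALPL 0.68 and 2.73. The depth limits ALPL before day 45 and IBSP throughout.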
